A study of Arabidopsis thaliana with 24 samples.

Results

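The zygote of Arabidopsis thaliana divides unequally into a small apical cell and a long basal cell, and these 2 daughters were compared here by RNA sequencing. Their libraries were chosen by the sample labels alone, which gave 12 of the 24 libraries of the series, 6 of apical cells and 6 of basal cells. All embryos were hybrids between Columbia (Col) and Landsberg erecta (Ler), both laboratory accessions. In each cell type, 3 libraries came from embryos with a Col mother and a Ler father, and 3 from embryos with a Ler mother and a Col father. The labels give embryos of 2 cells for these libraries, and the remaining 12 came from the embryo proper and the suspensor of embryos of 32 cells. A different cell number for the earlier stage appears in the series' design text, and the labels were followed. The series' design text calls the replicates biological and independent. It does not say how many cells made up a library or how the cells were separated. No mutant or transgene is named in the labels.

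The apical daughter builds nearly all of the embryo proper, while the basal daughter gives rise to the suspensor, a short-lived file of cells that anchors the embryo and feeds it from the maternal side, and to the founder cell of the root tip. In the zygote, a MAP kinase cascade headed by the kinase YDA and the transcription factor WRKY2 promotes the basal fate, in part through the homeobox genes WOX8 and WOX9. WOX2 and the AP2 factor DRN mark the apical daughter, and the auxin exporter PIN7 carries auxin from the basal towards the apical cell.

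The values are FPKM, fragment counts scaled to transcript length and library size, 1 per locus and library. Summed FPKM ran from 912475 to 988240 in the apical and from 1039852 to 1099958 in the basal libraries, and these ranges did not overlap. Between 13930 and 15366 loci had an FPKM of at least 1. The depth of the libraries is unknown, since neither the labels nor the files give it. On the log2(FPKM + 1) scale, used throughout for differences, libraries of the same cell and cross correlated at 0.891 to 0.922 in the apical and at 0.826 to 0.939 in the basal cell, and libraries of different cells at 0.771 to 0.814. Basal libraries also split by cross, at 0.808 to 0.838 between crosses. The labels' protocols name Nextera XT for library preparation of most libraries. For 3 basal libraries (Ler mother replicates 2 and 3, Col mother replicate 3) they name Nextera XT or NEBNext. Suspensor replicate 1 of the Ler mother carries this second wording too. Within the basal cell this wording itself gave 0 limma calls among 14830 loci, and 7.71% had an unadjusted p below 0.05. Counts of genes are also given without the 3 basal libraries where they led a comparison. Apical libraries held relatively more signal from long genes and basal libraries from short ones, with a slope on the log2 scale per doubling of exon length of 0.0655 to 0.205 against -0.208 to -0.0592. Values were therefore also adjusted for exon length and GC content, an alternative chosen after seeing the data. Because FPKM are shares of a whole library, and the number of cells behind it is not stated, fewer cells with a transcript and less of it per cell cannot be told apart.

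Of 16635 loci tested with limma, 2327 were higher in the apical and 2335 higher in the basal cell at a Benjamini-Hochberg adjusted p below 0.05, together 28.0% of those tested, or 14.0% in each direction. Tested against a 2-fold difference, 3.13% passed. In 1830 of the 4662 called genes, 11.0% of those tested, the 6 apical and the 6 basal libraries did not overlap. The largest differences lay on the basal side: 383 genes were at least 4-fold higher in the apical cell and 600 in the basal cell, and 7 against 78 were at least 16-fold higher. Of the called genes, 77 were listed at 0 in all basal libraries and 62 in all apical libraries. The direction was the same in both crosses for 4525 of the 4662 called genes, and 830 passed in each cross alone. Without the 3 basal libraries of the other kit wording 3294 of the calls were kept and none changed sign. Genes higher in the basal cell were shorter, with a median exon length of 1332 bases against 1962 for genes higher in the apical cell and 1789 for all tested. After the adjustment for length and GC content 2213 genes were higher and 2033 lower in the apical cell. Rescaling to TPM moved the balance to 2998 higher and 1927 lower, and the median of all genes from 0.04 to 0.16.

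The regulators of the first division checked the labels. DRN stood at 33.1, 56.7 and 72.6 FPKM (lowest, median and highest library) in the apical cell and at 0.0400, 2.13 and 5.46 in the basal cell. The GATA factor HAN, which sets the boundary between the embryo proper and its basal parts, stood at 123, 178 and 242 against 3.15, 32.3 and 50. For both genes every apical library lay above every basal one, with log2 differences of 4.26 (SE 0.44, limma adjusted p = 8.83e-06) and 2.83 (SE 0.45, limma adjusted p = 0.000307). WOX9 took the opposite course, from 2.12, 10 and 26.1 in the apical to 253, 342 and 428 in the basal cell, and WOX8 stood at 18.5, 34.8 and 72.0 against 186, 238 and 279.9. PIN7 was low in both cells, at 0 to 2.64 against 5.0 to 16.8. WRKY2 was at 1.26 to 16.8 against 22.2 to 35.6. None of these 4 genes overlapped between the cells, and their log2 differences were -4.92, -2.76, -2.47 and -2.20 (limma adjusted p = 8.72e-07, 5.19e-06, 0.00136 and 0.00230).

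WOX2 separated the cells least among these markers. Its levels were 83.2, 151 and 277 in the apical and 59.6, 90.2 and 127 in the basal cell, so the libraries overlapped. The log2 difference of 0.73 (SE 0.22, limma adjusted p = 0.0194) did not pass without the 3 basal libraries of the other kit wording (limma adjusted p = 0.0964) or in a fit of all 24 libraries (limma adjusted p = 0.173). YDA was itself higher in the apical cell, at 22.9 to 38.1 against 6.86 to 12.8 (log2 1.63, SE 0.25, limma adjusted p = 0.000295), as was the MAP kinase kinase gene MKK4 of the same cascade, at 24 to 56.8 against 1.23 to 18.1 (log2 2.39, SE 0.45, limma adjusted p = 0.00110). The homeobox genes HDG12 and HDG11, which act with WRKY2 on WOX8, also passed as higher in the apical cell, with log2 differences of 1.23 and 1.13. BBM, an AP2 factor able to induce embryos, was at 155 to 205 against 58.7 to 98.8 without overlap. LEC1, a master regulator of embryo identity, was at 462 to 758 against 303 to 792 and did not pass (limma adjusted p = 0.509). ARF5 and RKD4 did not pass either, with medians of 5.74 and 3.61 and of 1.99 and 1.48, and SSP, the paternal activator of YDA, was listed at 0 in every library. Over the list of the zygote polarity pathway, 10 of 27 tested members were higher and 4 lower in the apical cell, with a median log2 difference of 0.64 against 0.04 for all genes.

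**Figure D1:**
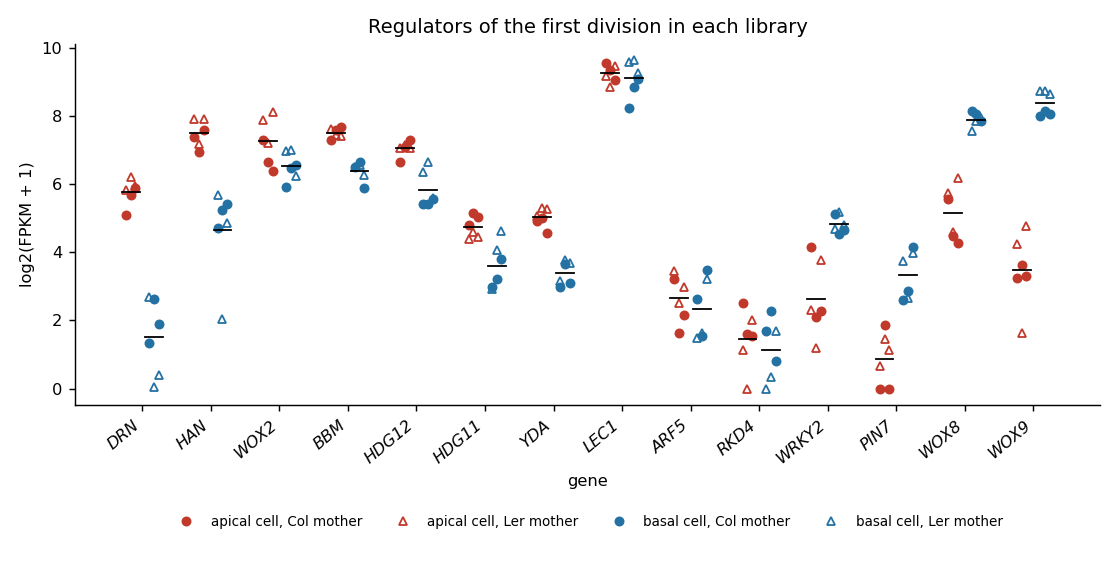
Level of each regulator of the first division in the 12 libraries, as log2(FPKM + 1); filled circles are libraries with a Col mother, open triangles with a Ler mother, and the black bar is the mean of the 6 libraries of a cell. DRN and HAN lie higher in every apical library and WOX8, WOX9, PIN7 and WRKY2 in every basal library, whereas the libraries overlap for WOX2 and LEC1.

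Genes of DNA replication moved together towards the apical cell. Replication starts where the origin recognition complex (ORC) loads the ring-shaped MCM helicase, after which DNA polymerases, the clamp PCNA and DNA ligase copy the strands. In dividing plant cells the genes of this machinery are activated by E2F transcription factors. Of 41 tested members of the list, 28 passed as higher and 0 as lower in the apical cell, with a median log2 difference of 1.12, and 17 did not overlap between the cells. Leaving out the 3 basal libraries of the other kit wording, 25 were higher and 0 lower. After the length and GC adjustment 24 were higher and 1 lower. The promoters of 4 of them, from 250 bases before to 50 after the annotated start, are printed here because they hold the E2F motif searched for, TTTCCCGC or TTTGGCGC on either strand, which is in capitals. They were read from the RefSeq assembly TAIR10.1 on the gene's own strand.

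MCM2, chr1:16969964-16970263, plus strand: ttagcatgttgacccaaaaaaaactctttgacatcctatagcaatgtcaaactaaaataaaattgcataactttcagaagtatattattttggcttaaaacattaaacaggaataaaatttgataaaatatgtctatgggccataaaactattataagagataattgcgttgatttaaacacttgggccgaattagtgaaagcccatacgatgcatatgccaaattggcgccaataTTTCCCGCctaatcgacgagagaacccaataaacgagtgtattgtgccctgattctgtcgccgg
MCM6, chr5:18010618-18010917, minus strand: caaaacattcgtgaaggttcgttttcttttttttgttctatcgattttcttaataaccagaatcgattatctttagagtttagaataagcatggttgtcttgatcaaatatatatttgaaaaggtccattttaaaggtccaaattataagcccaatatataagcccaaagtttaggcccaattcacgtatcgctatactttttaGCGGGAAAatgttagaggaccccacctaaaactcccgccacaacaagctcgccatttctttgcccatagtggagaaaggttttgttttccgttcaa
ORC3, chr5:5474116-5474415, plus strand: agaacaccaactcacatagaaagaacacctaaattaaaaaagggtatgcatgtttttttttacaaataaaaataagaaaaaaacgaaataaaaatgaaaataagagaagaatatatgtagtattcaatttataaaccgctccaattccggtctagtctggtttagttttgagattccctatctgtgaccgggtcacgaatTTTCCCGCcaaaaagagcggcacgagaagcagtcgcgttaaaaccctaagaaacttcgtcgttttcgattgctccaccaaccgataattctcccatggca
ICU2, chr5:26776703-26777002, plus strand: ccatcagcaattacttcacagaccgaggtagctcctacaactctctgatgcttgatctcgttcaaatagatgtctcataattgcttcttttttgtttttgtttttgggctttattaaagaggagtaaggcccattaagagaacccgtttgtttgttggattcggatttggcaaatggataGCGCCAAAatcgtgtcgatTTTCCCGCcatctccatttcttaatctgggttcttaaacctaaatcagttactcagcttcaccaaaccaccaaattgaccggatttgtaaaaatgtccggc

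MCM2, a subunit of the helicase, led the list. It was at 53.9, 84.8 and 114 FPKM in the apical cell and at 0.420, 6.91 and 14.9 in the basal cell (log2 3.64, SE 0.38, limma adjusted p = 9.75e-06). MCM6 stood at 17.8, 56.8 and 96.1 against 1.48, 7.47 and 24.1 (log2 2.72, SE 0.57, limma adjusted p = 0.00256). The lowest apical library of MCM6 lay below the highest basal one, while MCM2 did not overlap. ORC3, of the origin recognition complex, was at 17.2, 25.9 and 37.1 against 0.850, 2.33 and 13.4 (log2 2.53, SE 0.53, limma adjusted p = 0.00260). ICU2, the catalytic subunit of DNA polymerase alpha, was at 8.88, 11.4 and 14.7 against 1.47, 2.44 and 4.94 (log2 1.81, SE 0.38, limma adjusted p = 0.00236). Neither overlapped between the cells. The other helicase subunits passed as well, with log2 differences of 1.91 for MCM3, 2.01 for MCM4, 1.73 for MCM5 and 1.62 for PRL, the gene of MCM7. So did POLA2, which encodes the partner subunit of polymerase alpha (2.21), and RNR1, of the enzyme that makes deoxyribonucleotides (1.89). The clamp genes PCNA1 and PCNA2 differed by 1.41 and 0.86, the flap nuclease gene FEN1 by 1.46 and the ligase gene LIG1 by 0.84. The last of these and PCNA2 overlapped between the cells. PCNA2 did not pass without the 3 basal libraries (limma adjusted p = 0.132), and LIG1 did not pass after the length and GC adjustment (limma adjusted p = 0.0636).

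**Figure D2:**
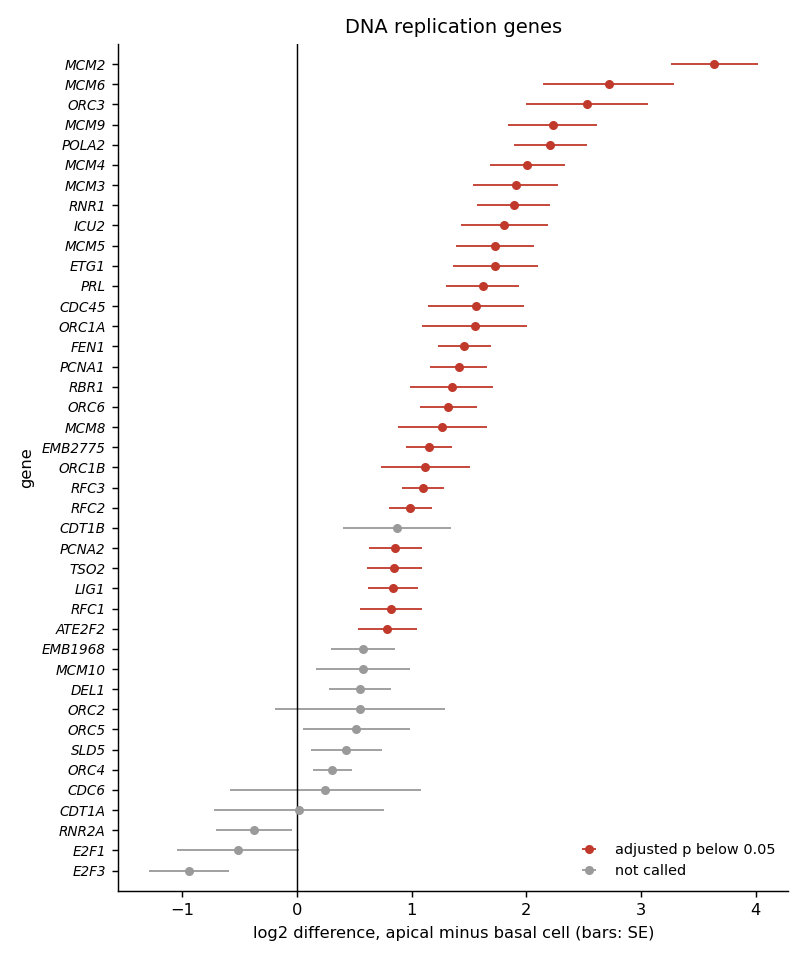
Log2 difference (apical minus basal) with its standard error for the 41 tested genes of DNA replication; red points have a limma adjusted p below 0.05 and grey points do not. The 28 red points all lie to the right of 0, with MCM2 farthest out at 3.64.

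The E2F motif was in 323 of 26711 promoters of the assembly, 1.21%, and in 1.51% of those of tested genes. It was in 15 of the 41 replication promoters, 36.6%, and in 13 of the 28 of the genes higher in the apical cell. Over all called genes it was in 2.92% of promoters of genes higher in the apical and in 0.839% of those higher in the basal cell. Among genes at least 4-fold different these shares were 19 of 371 and 1 of 579. A match of these letters describes the window and does not show a bound site.

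Genes of mitosis did not follow replication. Of 41 tested, 6 were higher and 3 lower in the apical cell, with a median log2 difference of 0.23 and 0 called genes without overlap. At 14.6 and 7.32%, these shares were near and below the 14.0% of all tested genes each way. Over all tested genes 11.0% were called without overlap. PLE, a microtubule bundler of the division plate, rose in the apical cell (log2 1.65, SE 0.30, limma adjusted p = 0.000854), and CYCA2;4, an A-type cyclin, as well (log2 2.16, SE 0.46, limma adjusted p = 0.00269). The activators of the anaphase-promoting complex CDC20.1, CDC20.2 and FZR3 lay lower in the apical cell, at -1.21, -1.24 and -1.55. None of these 3 passed without the 3 basal libraries of the other kit wording, a setting in which 9 mitosis genes were higher and 0 lower. Of 46 histone genes 12 passed as higher and 0 as lower in the apical cell. That count also depended on the setting, with 4 higher and 2 lower without the 3 basal libraries and 21 higher and 0 lower after the length and GC adjustment.

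Small RNA and chromatin genes also leaned towards the apical cell. Plants silence transposons through short RNAs that are cut by Dicer proteins, held by Argonaute proteins and used to guide DNA methylation. Of 20 tested genes of post-transcriptional small RNA pathways 9 passed as higher and 1 as lower in the apical cell (median 0.77), and of 36 genes of DNA methylation and silencing 11 were higher and 3 lower (median 0.47). AGO5, an Argonaute of germ cells and the early embryo, was at 105, 161 and 190.0 FPKM in the apical cell and at 5.23, 16.8 and 23.2 in the basal cell (log2 3.49, SE 0.34, limma adjusted p = 5.96e-06). AGO4, which guides DNA methylation, was at 114 to 190.0 against 17.9 to 52.7, and AGO1, the main carrier of microRNAs, at 134 to 199 against 69.4 to 92.5. These 3 did not overlap. DRM1, a methyltransferase for new methylation, stood at 26.4, 37.5 and 56.2 against 0.460, 1.80 and 7.27 (log2 3.60, SE 0.40, limma adjusted p = 1.69e-05). CMT3, which keeps methylation at CHG sites, stood at 118, 147 and 220.1 against 48.9, 61.3 and 69.8 (log2 1.34, SE 0.15, limma adjusted p = 2.13e-05). Both were higher in every apical library.

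Of the Dicer genes, DCL3 and DCL2 passed as lower in the apical cell, while DCL1 did not pass (log2 -0.28, SE 0.43, limma adjusted p = 0.662). DCL3, which cuts the longest class of small RNAs, was at 1.25 to 6.49 in the apical and 7.69 to 19.8 in the basal cell (log2 -1.86, SE 0.40, limma adjusted p = 0.00286). DCL2 was at 6.08 to 13.8 against 16.1 to 38.0 (log2 -1.18, SE 0.32, limma adjusted p = 0.0138), a call that did not hold without the 3 basal libraries (limma adjusted p = 0.0826). The DNA glycosylase gene DML2, which removes methylated cytosine, was also lower in the apical cell, with a log2 difference of -2.29. Among polycomb and trithorax genes, which keep genes silent or active through histone methylation, 11 of 31 passed as higher and 2 as lower in the apical cell (median 0.68), and 8 and 0 without the 3 basal libraries. NFC5, a WD40 protein of the MSI family, was at 102 to 173 against 9.44 to 53.5, EMF2 at 44.9 to 77.7 against 16.8 to 33.4, and MSI1 at 137 to 174 against 25.1 to 109.6. None of these 3 overlapped. FIE, another polycomb subunit, passed in the opposite direction with a log2 difference of -0.57, but not without the 3 basal libraries (limma adjusted p = 0.171).

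Members of several further gene families passed as higher in the apical cell. The RWP-RK factors include the RKD genes, regulators of egg cell identity, and 5 of 10 tested passed as higher and 0 as lower in the apical cell. RKD3 was at 340.3, 568 and 722 FPKM in the apical cell and at 29.7, 51.0 and 115 in the basal cell (log2 3.29, SE 0.24, limma adjusted p = 4.87e-07). RKD1 was at 3.74 to 25 and listed at 0 in all basal libraries. RKD2 was at 8.35 to 56.2 against 0.050 to 24 and overlapped. Of 39 TRAF-like genes, whose proteins share a MATH domain, 15 were higher and 1 lower (median 0.80). The TRAF-like gene AT2G01790 was at 336, 516 and 581 against 23.6, 35.2 and 57.2 (log2 3.75, SE 0.23, limma adjusted p = 1.21e-07). Its relatives AT1G31380, AT1G31390 and AT1G31400, which lie side by side, differed by 3.46, 1.26 and 2.00, and reads that fit several of them may have been shared out between them by the authors' counting. Of 8 genes with the domain of unknown function DUF674 5 were higher and 0 lower, among them AT5G37320 at 48.8 to 57.3 against 0 to 8.85. B3-domain transcription factors split, with 12 of 46 higher and 5 lower in the apical cell. AT2G24645 was at 28.0 to 54.2 against 0 to 11.7, and MEE45 at 16.7 to 52.0 against 0 to 6.89, while AT2G24700 was at 0 to 0.730 against 3.50 to 46.5.

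Among the 12 apical genes with the largest differences were further transcription factors. MYB96, an activator of cuticular wax synthesis, was at 31.0, 113 and 221 FPKM in the apical and 0, 6.84 and 25.8 in the basal cell (log2 4.1, SE 0.69, limma adjusted p = 0.000516). BME3, a GATA factor that promotes germination, was at 38.0, 51.6 and 69.4 against 0.140, 3.25 and 7.19 (log2 3.98, SE 0.49, limma adjusted p = 3.97e-05). The libraries of both genes were separate. The F-box gene AT1G60410 was at 59.6 to 87.8 against 0 to 10.5, and AT5G37140, which encodes a nucleoside triphosphate hydrolase, at 41.9 to 81.6 against 0.0400 to 7.52. AT4G01170, of unknown function, was at 14.1 to 25.3 and AT4G06740, which has no entry in the gene table, at 4.02 to 29.4, and both were listed at 0 in all basal libraries. AT3G17290 and AT5G61720, also without a described function, differed by 4.06 and 3.65.

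The apical genes with the largest differences in level were mostly of protein synthesis and differed by small factors. EF1A, an elongation factor of translation, was at 3891, 5167 and 5697 FPKM in the apical cell and at 2536, 2807 and 3395 in the basal cell (log2 0.76, SE 0.08, limma adjusted p = 1.05e-05). Ribosomal protein genes AT5G15200, P40, RP1 and AT5G07090 differed by 0.57, 0.63, 0.52 and 0.59, each without overlap. HOG1, which recycles the product of methylation reactions, was at 1336 to 1801 against 791 to 1091, and the glyoxalase-like gene AT5G48480 at 1243 to 1592 against 595 to 792. AT1G71470 differed most among the 8, at 757 to 1273 against 86.8 to 259 (log2 2.60, SE 0.24, limma adjusted p = 3.32e-06). These abundant genes did not stand for their family. Of 361 ribosomal protein genes 44 were higher and 104 lower in the apical cell (median -0.12), and after the length and GC adjustment 92 were higher and 35 lower (median 0.10), so the direction of the family turned with that setting.

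Among nutrient carriers, more members passed as higher in the basal than in the apical cell, though most members of the sugar, amino acid and mineral lists did not pass. In plants, SUC and STP proteins import sugars with protons, SWEET proteins let sugars leave the cell, AAP and LHT proteins import amino acids, and the proton pumps of the HA group (AHA in other texts) power uptake. Of 21 tested sugar carriers 1 passed as higher and 6 as lower in the apical cell, of 32 amino acid and peptide carriers 1 was higher and 13 lower (median -0.98), and of 74 mineral and water carriers 4 were higher and 18 lower (median -0.12). The 6 sugar carriers did not overlap between the cells. Without the 3 basal libraries of the other kit wording the counts of lower genes were 6, 9 and 14. Promoters of a carrier, a regulator and a peptide gene high in the basal cell are printed here, because the W-box, the sequence bound by WRKY factors, was searched for in all promoters. Capitals mark TTGACC or TTGACT on either strand, in TAIR10.1 from RefSeq, over the same window as above.

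SWEET8, chr5:16089428-16089727, plus strand: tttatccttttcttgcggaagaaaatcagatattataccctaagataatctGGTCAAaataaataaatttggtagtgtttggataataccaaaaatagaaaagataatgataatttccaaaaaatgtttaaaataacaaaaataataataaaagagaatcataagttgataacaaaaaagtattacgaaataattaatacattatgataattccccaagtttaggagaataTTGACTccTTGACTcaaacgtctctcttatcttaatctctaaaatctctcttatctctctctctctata
HB17, chr2:190320-190619, minus strand: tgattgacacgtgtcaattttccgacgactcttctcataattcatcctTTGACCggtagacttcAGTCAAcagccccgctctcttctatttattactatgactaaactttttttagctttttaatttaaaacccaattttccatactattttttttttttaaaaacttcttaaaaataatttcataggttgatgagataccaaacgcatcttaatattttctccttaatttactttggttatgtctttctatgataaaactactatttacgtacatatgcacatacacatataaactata
RALFL18, chr2:14047014-14047313, minus strand: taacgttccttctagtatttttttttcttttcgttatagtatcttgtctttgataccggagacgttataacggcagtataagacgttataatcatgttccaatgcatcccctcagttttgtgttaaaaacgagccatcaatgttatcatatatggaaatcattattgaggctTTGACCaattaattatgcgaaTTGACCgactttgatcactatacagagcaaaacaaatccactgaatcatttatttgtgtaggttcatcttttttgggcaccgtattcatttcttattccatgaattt

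SWEET8 was the most abundant carrier named here. It was at 307, 445 and 628 FPKM in the apical cell and at 2082, 3217 and 3608 in the basal cell (log2 -2.80, SE 0.18, limma adjusted p = 2.05e-07). SUC5, a sucrose importer also known from endosperm, was at 5.44, 13 and 42.6 against 58.0, 277 and 419, and STP7, a monosaccharide carrier, at 1.79 to 24.5 against 52.8 to 118. SUC1 and SUT2 were low, at medians of 0 and 4.21 against 17.9 and 19.0. The sugar exporter SWEET12 was the exception, at 319.7 to 925 in the apical and 189.7 to 428 in the basal cell (log2 1.02, SE 0.20, limma adjusted p = 0.00170). It overlapped between the cells and did not pass without the 3 basal libraries (limma adjusted p = 0.0614). AAP8, an amino acid permease, was at 6.33, 48.4 and 63.9 against 194, 418 and 475 (log2 -3.45, SE 0.45, limma adjusted p = 6.01e-05). LHT2 was at 0 to 4.82 against 9.76 to 59.0, and neither overlapped. The proline carrier gene PROT1 alone of its list was higher in the apical cell, at 48.1 to 101 against 15.5 to 45.0.

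Mineral carriers and pumps included both directions. The pumps HA1, HA2 and HA3 were at medians of 53.9, 29.4 and 6.19 in the apical and 167, 87.8 and 65.4 in the basal cell, and none overlapped (log2 -1.60, -1.79 and -3.05). The sulfate carrier SULTR3;4 was at 0.460 to 19.1 against 63.1 to 78.6 (log2 -3.47, SE 0.57, limma adjusted p = 0.000419), and the ammonium carrier AMT1;1 at 4.69 to 22.7 against 35.4 to 84.5. The copper carrier COPT2 lay higher in the apical cell instead, at 303, 437 and 681 against 67.7, 101 and 323 (log2 1.88, SE 0.21, limma adjusted p = 1.78e-05), with overlap. Markers of other seed tissues were measured beside these carriers. Of 14 endosperm markers, SUC5 among them, 6 were tested, 0 were higher and 2 lower in the apical cell. Their summed level was 6.88 to 42.6 FPKM in apical and 64.9 to 422 in basal libraries. Most of it was the carrier SUC5 itself, at means of 19.3 of 21.6 and 249.6 of 267 FPKM. The defining genes PHE1, MEA, AGL36, ZOU and MINI3 and the peptide genes ESF1.1 and ESF1.3 were at 0 in all 12 libraries, while AGL62 was at 0.247 ± 0.416 against 5.88 ± 6.56 (SD, n = 6). The related peptide gene ESF1.2 passed as lower in the apical cell. It did not pass after the length and GC adjustment (log2 -1.52, limma adjusted p = 0.0601). Of 14 seed coat and ovule markers 3 were tested and 2 were lower in the apical cell, TT4 and SHP1. Their sums were 0.0300 to 1.56 against 0.820 to 22.3 FPKM, and TT10, TT12 and TT16 were at 0 throughout. These 2 lists, and that of sperm and pollen, were longer when first drawn up and were shortened to the marker set of the analysis plan after values had been seen. With the longer lists, 0 of 7 endosperm markers were higher and 2 lower, and 2 of 10 seed coat markers were higher and 4 lower, with sums of 68.3 to 113 against 38.4 to 106 FPKM. Of 3 tested egg cell markers 1 was lower in the apical cell (EC1.5, log2 -1.04), and of 3 tested sperm and pollen markers, or 5 in the longer list, 1 was higher (GEX2, log2 1.31). The mean seed coat sum was 87.4 for apical and 69.7 for basal libraries with the longer list, but 0.798 and 13.7 with the shorter one. The part of such tissue in the basal values was not tested.

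Homeobox and WRKY factors included some with large differences towards the basal cell. HB17, a homeodomain leucine zipper factor, was at 0.200, 1.22 and 4.71 FPKM in the apical cell and at 65.3, 123 and 164 in the basal cell (log2 -5.47, SE 0.45, limma adjusted p = 1.22e-06). Its relatives HB4 and HAT3, which act in shade and leaf polarity, were at 4.95 to 55.7 against 83.2 to 214 and at 0 to 3.21 against 8.66 to 45.0. All 3 were without overlap. The homeobox family as a whole split evenly, with 7 of 37 higher and 8 lower in the apical cell, together 40.5%. Of 23 WRKY genes 4 were higher and 5 lower, together 39.1%. Both shares were above the 28.0% of all tested genes, but neither family leaned clearly towards one cell. WRKY28 was at 0, 2.45 and 9.42 against 58.3, 74.6 and 120.0 (log2 -4.85, SE 0.57, limma adjusted p = 2.80e-05), and WRKY15 at 0.710 to 12.5 against 10.3 to 46.2, while WRKY22 lay higher in the apical cell (log2 2.49).

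The W-box was in 32.4% of all promoters and in 32.9% of those of tested genes. It was in 40.3% of promoters of genes higher in the basal cell and in 29.2% of those higher in the apical cell. Among genes at least 4-fold higher in the basal cell it was in 308 of 579, 53.2%, and among those at least 4-fold higher in the apical cell in 29.4%. The G-box CACGTG was in 11.1% of promoters of basal genes, 8.58% of those of apical genes, 9.07% of those of tested genes and 7.79% of all. The auxin element TGTCTC was in 12.3, 14.1, 13.4 and 14.2% in the same order, and the TATA box TATAAA in 51.1, 48.8, 49.7 and 52.6%. Both strands were searched for each, and the windows of neighbouring genes can overlap.

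Genes of small secreted proteins held some of the highest basal levels. Secreted peptides carry signals between plant cells, such as phytosulfokine, RALF and the cysteine-rich LCR and SCRL peptides. Of 52 tested peptide genes 0 were higher and 18 lower in the apical cell (median -1.05). Without the 3 basal libraries of the other kit wording 1 was higher and 25 lower. After the adjustment for length and GC content 3 were higher and 13 lower, and the median was 0.21, so the sign of the median depended on that setting for these short genes. RALFL18 was at 24.6, 112 and 294 FPKM in the apical cell and at 1526, 2125 and 3987 in the basal cell (log2 -4.28, SE 0.43, limma adjusted p = 8.06e-06). PSK1, a phytosulfokine precursor, was at 70.2, 98.5 and 158 against 900.0, 1197 and 1894 (log2 -3.57, SE 0.13, limma adjusted p = 2.77e-10). SCRL26 was at 16.6, 50.2 and 127 against 961, 1204 and 1552 (log2 -4.48, SE 0.37, limma adjusted p = 1.20e-06). All 3 were far apart in every library, and their calls held after the length and GC adjustment (limma adjusted p = 1.43e-05, 4.16e-08 and 3.21e-06). The thionin-like gene AT5G63085 was at 33.5, 72.0 and 266 against 2819, 3335 and 4078 (log2 -5.36, SE 0.18, limma adjusted p = 1.66e-10). AT1G04645, of the S1 self-incompatibility family, was at 22.5, 64.2 and 365 against 1577, 2180.0 and 3322.

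The other basal genes with the largest differences in level were the BTB/POZ gene AT4G04090, the carbohydrate kinase-like gene AT3G59480 and the uncharacterized genes AT4G33145 and AT5G61412. AT4G04090 was at 89.0, 132 and 461 FPKM in the apical cell and at 4112, 4908 and 5476 in the basal cell (log2 -4.72, SE 0.30, limma adjusted p = 1.46e-07). AT4G33145 was at 2551, 3875 and 9978 against 10545, 12412 and 15474 (log2 -1.47, SE 0.20, limma adjusted p = 9.96e-05). The libraries of the latter came within a small distance of each other but did not overlap.

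By fold, the cupin gene AT4G28703 differed most among the named basal genes, at 0, 0.170 and 11.3 FPKM in the apical cell and at 122, 189.5 and 323 in the basal cell (log2 -6.69, SE 0.53, limma adjusted p = 9.69e-07). Cupins are a family of barrel-shaped proteins that includes seed storage proteins, and of 12 tested 0 were higher and 8 lower in the apical cell. AT2G28680, another cupin, was at 177 to 645 against 1027 to 2366. CML11, a calmodulin-like calcium sensor, was at 0, 0.955 and 8.24 against 115, 184 and 314 (log2 -6.19, SE 0.49, limma adjusted p = 9.36e-07). PCR2, a zinc carrier, was at 0 to 3.94 against 43.4 to 172, and NAKR1 at 1.27 to 17.8 against 178 to 787. AT5G50070, of the family that inhibits invertase and pectin methylesterase, was at 0 to 14.1 against 188 to 544. AT2G23148, of the S1 family, was at 0 to 3.70 against 73.5 to 208, and AT5G66800, similar to membrane-bound kinase regulators, at 0.250 to 11.6 against 84.2 to 143. None of these genes overlapped between the cells.

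Genes of the cell surface, calcium and oxygen chemistry included members of both directions. Of 69 cell wall genes 8 were higher and 3 lower in the apical cell, 11.6 and 4.35%, below the 14.0% of all genes each way, and 7 and 7 without the 3 basal libraries. EXPA14, an expansin that loosens walls, was at 0.430, 2.36 and 21.7 FPKM in the apical cell and at 108, 128 and 178 in the basal cell (log2 -4.87, SE 0.42, limma adjusted p = 1.87e-06), while GAUT13, of pectin synthesis, was at 3.98 to 14.5 against 0 to 0.960. Of 86 genes of arabinogalactan proteins and of lipid transfer and surface lipids 13 were higher and 10 lower. At 15.1 and 11.6%, these shares were near that of all genes. AGP5 stood at 0 to 25.4 against 121 to 534 and AGP16 at 28.8 to 64.0 against 195 to 308, while GPAT2 was higher in the apical cell with a log2 difference of 2.22. Of 98 calcium genes 15 were higher and 9 lower, 15.3 and 9.18%, near and below the share of all genes. The annexins went both ways, ANNAT4 at 0 to 7.58 against 65.4 to 211 and ANN6 at 109.8 to 199 against 5.97 to 46.9. Of 38 genes of reactive oxygen and glutathione 3 were higher and 10 lower, and the superoxide dismutase gene CSD1 was at 10.4, 26.9 and 58.8 against 161, 204 and 234 (log2 -2.91, SE 0.24, limma adjusted p = 1.09e-06). Of 27 autophagy genes 0 were higher and 9 lower, among them ATG8E and ATG12A with log2 differences of -2.88 and -2.09. When the 3 basal libraries were left out, 2 were higher and 7 lower.

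TUA1, an alpha-tubulin of the microtubules, was at 63.0 to 118 FPKM in the apical cell against 14.0 to 25 in the basal cell (log2 2.18, SE 0.21, limma adjusted p = 4.73e-06). Reference genes often used for scaling were not level: 5 of 11 were higher and 1 lower in the apical cell, with ACT7 at 894 to 1148 against 416 to 744. Of 22 tested genes of touch and early stress, a sign of handling, 4 were higher and 1 lower. Together this was 22.7%, against 28.0% of all tested genes. Of 32 heat shock and chaperone genes 6 were higher and 7 lower, together 40.6%, and 2 and 9 after the length and GC adjustment. Of 32 photosynthesis genes 0 were higher and 5 lower, and of 9 storage genes 1 and 1, together 15.6 and 22.2%.

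Hormone genes differed by member. Of 50 tested auxin genes 11 were higher and 3 lower in the apical cell (median 0.31). Together this was 28.0%, the same share as over all tested genes. TAA1, which makes the auxin precursor, was at 0 to 31.5 FPKM and listed at 0 in all basal libraries. The auxin importer LAX1 was at 18.6 to 39.5 against 2.95 to 18.1, and the auxin-conjugating enzyme gene DFL1 at 9.56 to 21.2 against 0 to 9.30. The exporters PIN4 and ABCB19 lay lower in the apical cell like PIN7, at 0 to 2.47 against 1.83 to 24.4 and at 0.280 to 4.06 against 6.98 to 16.7. Of 35 cytokinin genes 9 were higher and 2 lower, together 31.4%. LOG7, which activates cytokinin, was at 25.7, 41.2 and 68.0 against 1.56, 7.77 and 11.1 (log2 2.68, SE 0.33, limma adjusted p = 3.84e-05), and the response regulator ARR4 at 10.1 to 15.2 against 0 to 6.70, while RR5 was listed at 0 in all apical libraries and stood at 0.0900 to 12.6 in the basal cell. Of 32 ethylene and jasmonate genes 6 were higher and 1 lower, of 28 abscisic acid genes 6 and 3, of 11 gibberellin genes 2 and 1, and of 13 brassinosteroid genes 2 and 1. The shares called were 21.9, 32.1, 27.3 and 23.1% in the same order, near the share of all tested genes. ACS6, of ethylene synthesis, was at 25.5 to 142 against 5.07 to 15.1, and BZR1, a brassinosteroid-response factor, at 11.4 to 24.4 against 0.940 to 6.49.

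**Figure D3:**
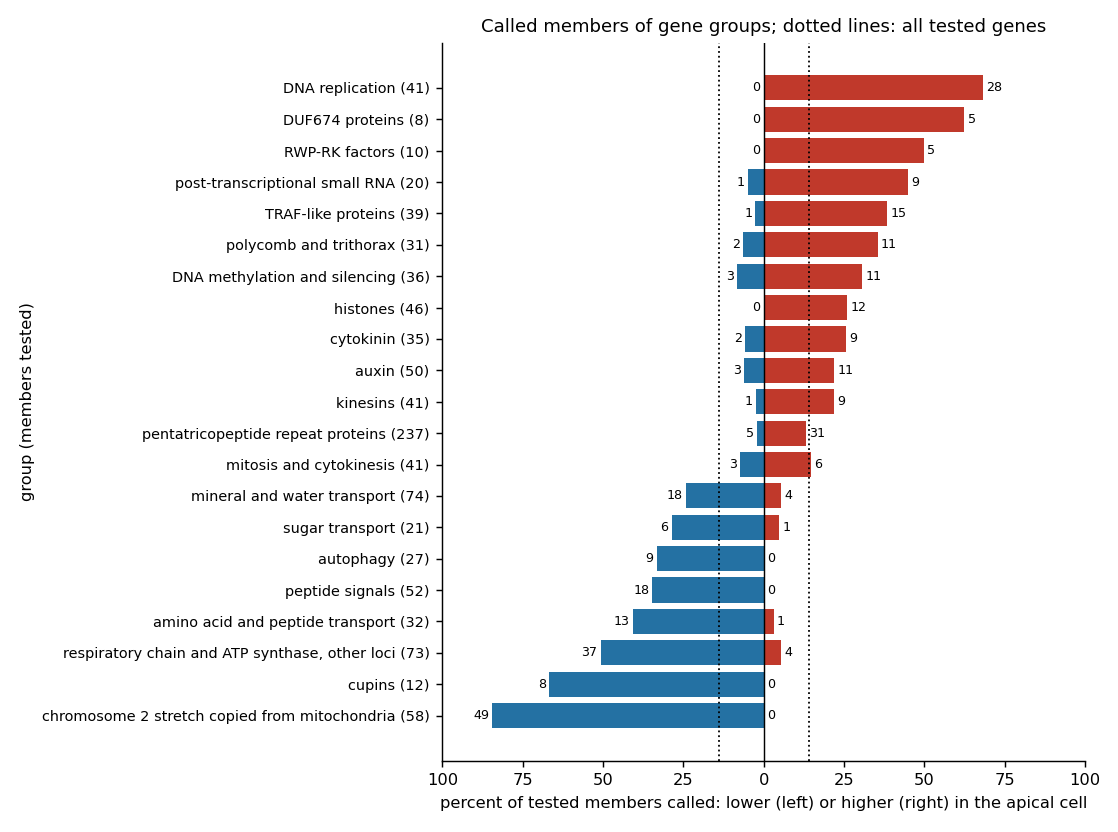
Share of the tested members of each group that passed as higher (red, right) or lower (blue, left) in the apical cell, with the counts at the bar ends; dotted lines mark the shares over all tested genes, 14.0% each way. DNA replication reaches farthest to the right with 28 of 41 and the chromosome 2 loci farthest to the left with 49 of 58.

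Transcripts with a mitochondrial copy were far higher in the basal cell. The nuclear chromosome 2 of Arabidopsis carries a large insertion of mitochondrial DNA next to its centromere, so reads from mitochondria and from this insertion cannot be told apart by these counts. The range of loci from AT2G07667 to AT2G07835, without MCM5 and ABCC13, was chosen after its values were seen. Of its 94 loci 58 were tested, 0 were higher and 49 lower in the apical cell (median -2.44), and 22 did not overlap. With those 3 basal libraries left out 0 were higher and 52 lower. Summed over the loci, apical libraries held 6.89 to 50.2 FPKM. Basal libraries held 991 to 1482 with a Col mother and 531 to 1150.0 with a Ler mother. No locus was above 7.33 FPKM in any apical library. AT2G07671, annotated as ATP synthase subunit C, was at 0.180, 4.96 and 7.33 against 78.0, 246 and 297 (log2 -5.45, SE 0.40, limma adjusted p = 6.10e-07). AT2G07698, annotated as the alpha subunit of the same enzyme, was at 0.450 to 4.20 against 58.9 to 139, and AT2G07687, annotated as cytochrome c oxidase subunit III, at 0 to 2.59 against 8.75 to 53.3. Both were separate in all libraries.

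**Figure D4:**
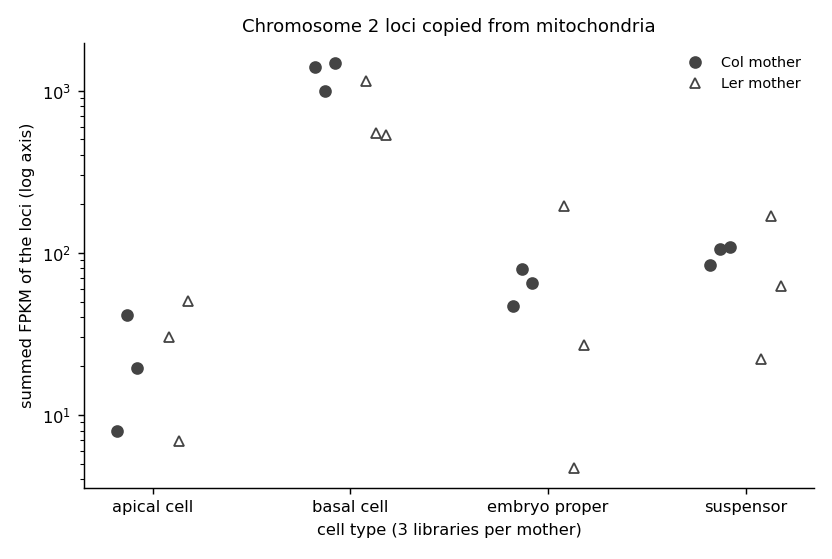
Summed FPKM of the chromosome 2 loci with a mitochondrial copy in each of the 24 libraries, on a log axis; filled circles have a Col mother and open triangles a Ler mother. The basal cell libraries lie between 531 and 1482 and the apical cell libraries between 6.89 and 50.2, with the embryo proper and the suspensor at 4.73 to 194.

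Nuclear genes of respiration shared the direction with smaller differences. Of 73 tested genes of the respiratory chain and ATP synthase outside that range 4 were higher and 37 lower in the apical cell, with a median log2 difference of -0.47 and 22 without overlap. Without the 3 basal libraries 4 were higher and 34 lower, and after the length and GC adjustment 5 were higher and 24 lower. COX19-2, an assembly factor of cytochrome c oxidase, was at 41.5, 47.8 and 53.6 FPKM against 119, 172 and 211 (log2 -1.76, SE 0.16, limma adjusted p = 3.69e-06). AT3G01130, annotated as ATP synthase chain E, was at 158 to 224 against 335 to 452. EMB1467, of complex I, and ATP3, the gamma subunit of ATP synthase, went the other way with log2 differences of 0.95 and 0.64, both with overlap.

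Whether the difference between the cells depended on the direction of the cross was tested as the interaction of cell and mother. It passed at 79 of 16635 loci, 0.475%, and 2493 had an unadjusted p below 0.05. This count was sensitive to the settings, from 21 with the replicate number as a block to 1162 with library weights, and from 29 to 236 when 1 replicate was left out. At 62 of the 79 the difference was more basal with a Col mother, and at 17 the reverse. AT2G21640, known as a marker of oxidative stress, was at 422, 448 and 598 FPKM in basal cells with a Col mother. It was at 27.1 to 51.5 in basal cells with a Ler mother and at 16.7 to 37.3 in apical cells, with an interaction of -3.86 on the log2 scale (limma adjusted p = 0.00314). AT5G54560 was at 81.9, 117 and 136 in the same 3 libraries, listed at 0 in basal cells with a Ler mother and at 0 to 4.83 in apical cells (interaction -8.23, limma adjusted p = 0.00241). The glutathione transferase gene GSTU9 followed the same pattern, at 112 to 309.7 in basal cells with a Col mother and at 0 to 4.79 elsewhere. AT3G22060, a receptor kinase-like gene, was at 21.2, 33.4 and 47.1 only in basal cells with a Ler mother, among these 12 libraries, and at 0 to 0.390 elsewhere (interaction 4.87, limma adjusted p = 0.00768). In the apical cell HIR2 was at 0 to 0.540 with a Col mother but at 39.6 to 92.8 with a Ler mother and at 39.2 to 132 in the basal cell. AT1G52470 was at 41.0 to 66.0 in apical cells with a Ler mother and at 0 to 2.15 in the other groups. The ribosomal RNA loci AT3G41979 and AT2G01020 had identical values in every apical library and took opposite courses in the basal cell. Their reads may have been shared out between copies, so neither value is certain. AT2G07777, in the chromosome 2 range, was at 76.5 to 137 in basal cells with a Col mother and at 0 with a Ler mother. Each value adds up both parental alleles, which were not analysed apart.

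The later descendants of these cells were measured in separate libraries. Suspensor replicate 1 of the Ler mother, with the other kit wording, was among them, and the later comparison was not repeated without it. Of 2221 apical genes tested at 32 cells, 52.5% were higher in the embryo proper and 13.2% in the suspensor. Of 2166 basal genes 47.5% were higher in the suspensor and 17.2% in the embryo proper. Over all genes tested at both stages these shares were 29.7% for the embryo proper and 23.7% for the suspensor. DRN, AGO5 and MCM2 kept their direction, with log2 differences between embryo proper and suspensor of 4.91, 4.98 and 3.18. WOX8 separated the later cells further, at 0 to 1.38 FPKM in the embryo proper and 353 to 428 in the suspensor, and WOX9 less, at 74.9 to 119 against 111 to 338. WOX2, which overlapped at 2 cells, separated the embryo proper from the suspensor, at 75.1 to 104 against 0 to 9.84 (log2 5.01, SE 0.50, limma adjusted p = 4.14e-06). A test of the change between stages, which passed at 35.5% of loci, gave limma adjusted p = 2.53e-06 for WOX2.

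Some genes turned round between the stages. COPT2, higher in the apical cell, was at 0 to 0.470 FPKM in the embryo proper and 154 to 526 in the suspensor. SWEET12 was at 5.20 to 21.1 against 563 to 1323. The changes between stages were 9.89 and 7.43 on the log2 scale (limma adjusted p = 2.37e-15 and 1.02e-12). ANN6 and BME3 likewise passed as higher in the suspensor, with log2 differences of -3.40 and -1.76. CML11 and AT5G66800, both basal at 2 cells, were instead at 37.5 to 74.0 and 48.3 to 119 in the embryo proper and at 12.3 to 63.8 and 0.280 to 16.7 in the suspensor. The change between stages was -7.29 for CML11 and -9.50 for AT5G66800 (limma adjusted p = 7.47e-09 and 1.16e-09). These genes were picked out after their values at both stages were seen.

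**Figure D5:**
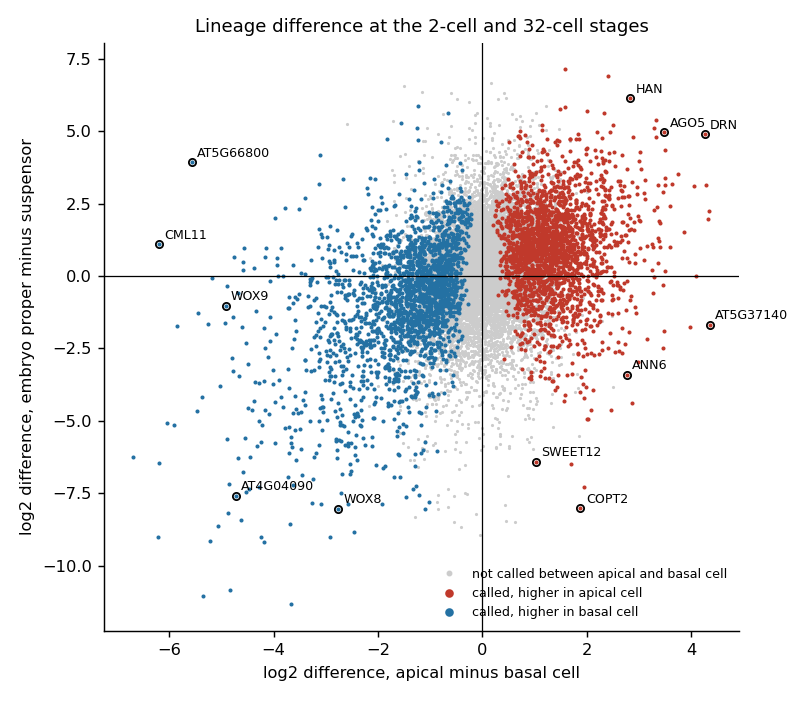
Log2 difference between apical and basal cell (x axis) against that between embryo proper and suspensor (y axis) for each gene tested at both stages; red and blue points passed as higher in the apical and basal cell, grey points did not. Red points lie mostly above 0 on the y axis and blue points mostly below, with medians of 0.98 and -0.70.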

How the data were processed

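RNA of hybrid Arabidopsis embryos was measured in 24 libraries, of which the 6 apical and 6 basal cell libraries were compared. Per the labels' protocols, mRNA was isolated with Dynabeads mRNA DIRECT and cDNA made with a SMART-Seq v4 kit. RSEM and TopHat2 2.1.1, with TAIR10, are named in the submitters' processing notes without their roles. The authors deposited FPKM values for 32399 loci per library, of which 31912 were in the TAIR10.1 gene table of RefSeq used for names. Depth is unknown, so no counting interval was given.

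A locus was tested if 3 or more of the 12 libraries held an FPKM of 1 or more. Values were taken as log2(FPKM + 1), which understates the change of low genes, and limma 3.58.1 (R 4.3.3, mean-variance trend) was fitted with the 4 means of cell and mother. The difference was averaged over both crosses, and p-values were adjusted by Benjamini-Hochberg over all tested loci, with a threshold of 0.05. In simulated data for this comparison, with normal noise, 200 genes with a mean log2(FPKM + 1) above 3 were changed. Of these, 32.6% of genes changed by 1 and 81% of those changed by 2 on the log2 scale were recovered, with 9.4 false calls on average. The simulation changed 200 of 16635 genes, whereas 4662 were called in the data, so these rates do not carry over directly. The recovery of lower genes was not simulated. A promoter was the window from 250 bases before to 50 after the annotated start.

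Genes were named by rule: for either direction the 12 largest differences among calls without overlap whose higher cell had a mean of 10 FPKM or more, the 8 largest differences in level, up to 3 called members of each list in each direction, and 16 regulators. Other genes were named after their values were seen. One of the regulators and one gene list are not reported here. The members, lists and families were chosen with earlier results of these data known. The marker lists of endosperm, of seed coat and ovule and of sperm and pollen were replaced by shorter ones after values were seen, and counts for both versions are given. Figures and tables were made with Python 3.11.15, pandas 2.3.3 and matplotlib 3.10.9. Alternatives were 2 pseudocounts, filters, 3 scalings, library weights, kit wording, each cross alone, a replicate block, each replicate left out and, added after seeing the data, an adjustment for exon length and GC content and the longer marker lists.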

Additional observations from a re-analysis of the deposited data

Results flagged for a closer look

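Among 112 checks of 6 libraries of a cell, 8 genes had a library apart from the other 5. The gap to the nearest library is given as a share of the range of the group, and chance flags about 1 group in 20. In the apical cell the high library was replicate 2 of the Col mother for AT1G13830 (share 0.841, FPKM 2.14 against at most 0.340), replicate 3 of the Ler mother for PCR2 (0.957, 3.94 against at most 0.170) and AT5G66800 (0.915, 11.6 against at most 1.22), and replicate 3 of the Col mother for AT4G28703 (0.881, 11.3 against at most 1.35). All 4 are basal genes with low values in the apical cell, and the source of these values was not tested. In the basal cell replicate 3 of the Col mother was low for AT3G59480 (0.659, 3025 FPKM) and SWEET8 (0.663, 2082 FPKM). Replicate 1 of the Ler mother was high for RALFL18 (0.734, 3987 FPKM), and replicate 2 of the Ler mother was high for AT5G61720 (0.855, 1.24 FPKM).

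For 6 genes the difference between the cells depended on the mother, by the interaction of the limma fit. The interaction on the log2 scale, with the Ler mother subtracted from the Col mother, was -8.23 for AT5G54560, -3.86 for AT2G21640, -7.46 for AT2G41730, -7.47 for AT3G45730, -7.09 for AT2G03230 and -5.17 for HIR2. For the first 5 the 3 basal libraries with a Col mother were high and the other 9 low. For HIR2 the 3 apical libraries with a Col mother were low and the other 9 high.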

How the results depend on the processing

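With the replicate number as a block the interaction of cell and mother passed at 21 loci in place of 79. Same-numbered apical and basal libraries correlated at -0.0174 to 0.0518 in their deviations from the group means, and differently numbered ones at -0.0484 to 0.0228. With a Col mother the same-numbered pairs, at 0.0143 to 0.0518, lay above the others, at -0.0484 to 0.0108. Whether same-numbered libraries were collected together cannot be told from these values. The interaction count was 228 in a fit of all 24 libraries, 1162 with library weights, 140 with no filter, 169 with no trend, 125 with a pseudocount of 5, 173 without the 3 basal libraries of the other kit wording, and 29 to 236 when each replicate was left out. Only 176 genes were higher and 344 lower in the apical cell when tested against a 2-fold difference. With a Col mother alone the counts were 1125 and 1508, and with a Ler mother alone 980 and 893. Leaving out each replicate gave 1897 to 2510 higher and 1969 to 2443 lower. The share of apical genes higher in the embryo proper fell from 52.5 to 45.6% at a threshold of 0.01. Of 6657 pairs of a gene and a setting, over 230 genes, 6083 kept direction and call, 556 kept the direction and lost the call, 6 gained a call and 12 no longer kept the direction. All 12 were in a single cross. With a Ler mother alone the log2 differences were 1.45 for AT5G54560, 1.33 for AT2G41730, 0.87 for GSTU9, 0.53 for AT3G45730, 0.20 for AT2G03230, 0.05 for AT2G07777, 0.01 for GAPC1 and -2.68 for AT2G01020. With a Col mother alone they were 0.82 for TAS3, -2.78 for AT3G41979 and 0.00 for RR22 and AT3G22060. The cause was not tested. The kit wording as a covariate left 2986 of 4662 calls. No depth is given, so low FPKM values carry an unknown counting error.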

Other observations

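Long noncoding RNA loci and pseudogenes were called no more often than the 28.0% of all tested loci. Loci without an entry in the gene table were called more often, 13 of 56 higher and 7 lower in the apical cell, together 35.7%. Of 3 tested snoRNA loci 2 were lower. Of 114 tested long noncoding RNA loci 3 were higher and 14 lower in the apical cell, together 14.9%, with a median log2 difference of -0.30, and of 127 pseudogenes 11 were higher and 24 lower, together 27.6%. Of 237 genes of pentatricopeptide repeat proteins, which process organelle RNA, 31 were higher and 5 lower (median 0.41). These are 13.1 and 2.11%, both below the 14.0% of all tested genes each way. Of 43 proteasome genes 10 were higher and 3 lower, 23.3 and 6.98%. Of 41 kinesin genes, motors on microtubules, 9 were higher and 1 lower, 22.0 and 2.44%. FLC, a repressor of flowering reset in the embryo, was at 15.7, 54.0 and 110.3 FPKM in the apical and at 5.67, 12.5 and 19.1 in the basal cell (log2 1.91, SE 0.31, limma adjusted p = 0.000391), with overlap between the cells.

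TAS3, a source of small RNAs against auxin response factors, was at 8.55 to 17.1 FPKM in basal cells with a Ler mother and at 0 in those with a Col mother. Shorter genes were more often lower in the apical cell: in the shortest of 4 equal classes of exon length 8.25% of genes were higher and 26.3% lower, and in the longest class 16.6% and 6.08%.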
